A study of Mus musculus with 2 samples.

Results

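Disease-associated phagocyte genes are a set of transcripts, among them Apoe, Trem2, Lpl, Gpnmb, Spp1, Clec7a, Lgals3 and Axl, that microglia and macrophages are known to raise where myelin, lipid or dying cells have to be taken up. The 8 genes were taken by their symbols from the gene list of the count tables, and 7 of them had a row among 27998 genes. Clec7a, which encodes the β-glucan receptor Dectin-1, had no row under that symbol and was not analysed here. UMIs (unique molecular identifiers, each standing for 1 captured transcript) of the 7 genes were summed in cells that carried at least 3 UMIs of C1qa, C1qb and C1qc together (called C1q cells below), in monocytes, in neutrophils and in lymphocytes.

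The cells were CD45+ leukocytes sorted from C57Bl/6 mouse brain at postnatal day 21, and none of the animals was treated. One library came from twi mice (galc-/-), which lack the lysosomal galactosylceramidase and model Krabbe disease, and the other from WT littermates (galc+/+). Per the study's methods, cells of 2–3 animals of a genotype were pooled before loading, so each genotype was 1 sample with no replicate. Genotype could not be told apart from library or animal, and sex-linked transcripts also differed between the libraries, as given below. The methods call the pups litter-matched, but which litters were pooled is not stated. No p-value is given for that reason, and every interval below covers counting error only. The meninges were removed before dissociation according to the same methods, and the twi allele is a germline mutation carried by every cell.

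After removal of barcodes with over 15% mitochondrial UMIs, 1271 WT and 1207 twi cells remained, with a median of 2222 and 3182 UMIs per cell and 0 barcodes in common. The 3′ counts of Galc, 4 UMIs in WT and 8 in twi, do not read the twi mutation and check nothing about the labels. The C1q class held 28 WT and 18 twi cells with 91325 and 107653 UMIs, and the monocyte class 35 WT and 59 twi cells with 238816 and 316487 UMIs. A twi C1q cell gave more UMIs, with a median of 4338 against 3116 in WT. The twi median was also higher in B cells (2210 against 2003) and T or NK cells (3571 against 3016). It was lower in monocytes (5115 against 6007) and close to WT in neutrophils (2362 against 2407). Levels are given as CPM (UMIs per 1000000 UMIs of the class) unless stated otherwise. Neutrophils numbered 228 and 65 cells, B cells 563 and 171, and T or NK cells 355 and 850. Fewer cells, fewer transcripts per cell and a smaller part of them captured cannot be told apart in such sums.

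The C1q cells carried the markers of microglia. All 12 microglia markers had UMIs in both libraries, at a summed level of 38642 CPM in WT and 20900 CPM in twi, and all 28 WT and 16 of the 18 twi cells were microglia-like by these markers. P2ry12, the ADP receptor of homeostatic microglia, stood at 4008 CPM in WT and 836 CPM in twi. Of 12 markers of border macrophages, 4 in WT and 6 in twi had a UMI, at 569 and 483 CPM. Lyve1, Pf4 and Cd163 were at 0 in both, but Ms4a7 had 0 UMIs in WT and 19 UMIs in 2 twi cells. Maf went the other way, with 29 UMIs in WT and 9 in twi. Neutrophil markers summed to 6723 CPM in the WT C1q cells and 288 CPM in the twi C1q cells, and 5 WT cells had 20 or more UMIs of the neutrophil gene Retnlg. Markers of T or NK cells summed to 734 CPM in WT and 762 CPM in twi, and 3 cells of each library had 3 or more of them. The part of such cells in the results was not tested beyond the values given below. Markers of neurons, glia and endothelium summed to 76.6 and 102 CPM.

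TREM2 is a receptor for lipids and apolipoproteins, among them APOE, and signals through TYROBP. LPL hydrolyses triglycerides of lipoproteins, GPNMB is a transmembrane glycoprotein of late endosomes and lysosomes, and AXL is a TAM receptor that binds phosphatidylserine on dying cells through GAS6. SPP1 (osteopontin) is a secreted ligand of integrins and CD44, and LGALS3 (galectin-3) binds β-galactosides and damaged lysosomes.

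Members were spread over the classes in gene-specific ways. In WT, 95.3% of all Trem2 UMIs of the library lay in the C1q cells, and in twi 78.3%. For Apoe the C1q cells held 37.7% of the library's UMIs in WT and 18.8% in twi, whereas monocytes held 28.6% in WT and 75.8% in twi. Cells that met no class rule (61 in WT and 43 in twi) held 19.1% and 1.42% of Apoe UMIs. In WT, 4 of these cells had 115 of their 127 UMIs. Such shares follow the number of cells in a class as well as the level. Of the twi Spp1 UMIs, 82.3% were in monocytes.

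**Figure D1:**
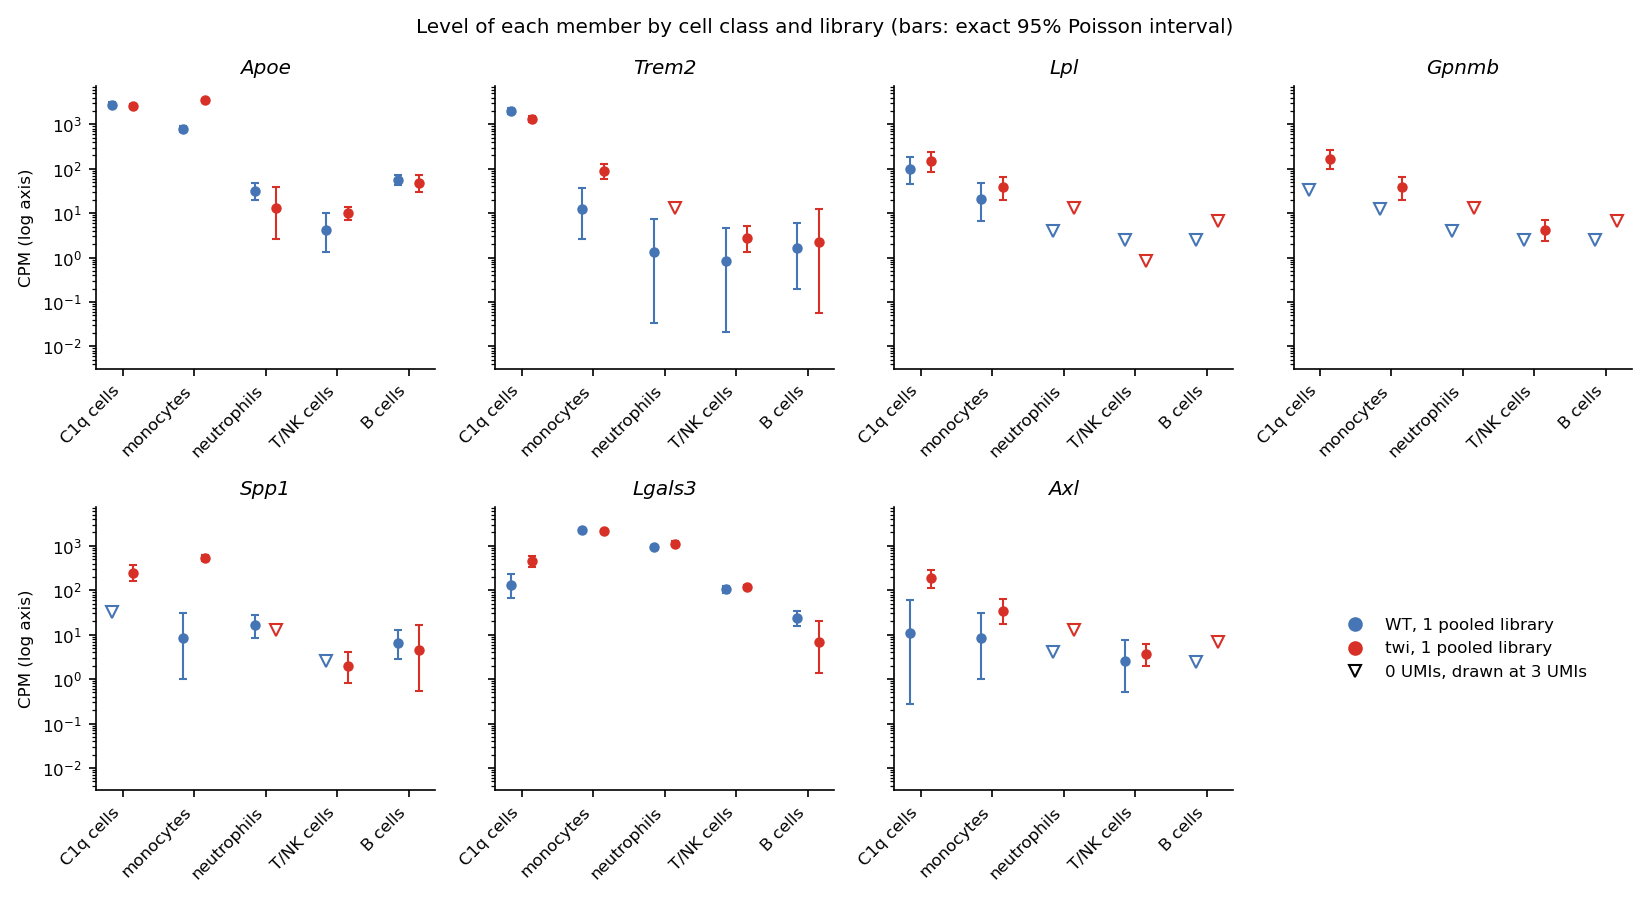
CPM of the 7 measured members on a log axis in C1q cells, monocytes, neutrophils, T or NK cells and B cells of the WT (blue) and twi (red) libraries; bars are exact 95% Poisson intervals, and open triangles mark 0 UMIs, drawn at the level of 3 UMIs. Apoe of monocytes stood at 796 CPM in WT and 3536 CPM in twi, while Trem2 was highest in C1q cells of both libraries and Lgals3 in monocytes of both.

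Promoters of the 3 members that differed most in monocytes and passed the minimum of 25 UMIs there, Spp1, Trem2 and Apoe, are shown to allow a comparison of the sequence ahead of genes that were higher in twi. Each run is the 250 bases before a transcription start, in RefSeq's sequence of GRCm38.p6, 5′ to 3′ on the gene's strand. Capitals mark a match to 1 of 4 motifs searched on both strands.
Spp1, chr5:104434861-104435110, plus strand: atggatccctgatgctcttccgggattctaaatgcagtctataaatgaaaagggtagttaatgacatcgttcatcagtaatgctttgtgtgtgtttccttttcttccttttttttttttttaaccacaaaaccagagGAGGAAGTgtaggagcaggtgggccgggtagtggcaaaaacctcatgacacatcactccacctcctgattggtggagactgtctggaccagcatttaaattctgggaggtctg
Trem2, chr17:48346151-48346400, plus strand: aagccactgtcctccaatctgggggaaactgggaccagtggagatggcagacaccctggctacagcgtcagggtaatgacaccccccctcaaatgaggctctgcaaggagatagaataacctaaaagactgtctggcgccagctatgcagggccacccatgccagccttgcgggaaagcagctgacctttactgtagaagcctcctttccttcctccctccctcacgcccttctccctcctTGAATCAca
Apoe, chr7:19699189-19699438, minus strand: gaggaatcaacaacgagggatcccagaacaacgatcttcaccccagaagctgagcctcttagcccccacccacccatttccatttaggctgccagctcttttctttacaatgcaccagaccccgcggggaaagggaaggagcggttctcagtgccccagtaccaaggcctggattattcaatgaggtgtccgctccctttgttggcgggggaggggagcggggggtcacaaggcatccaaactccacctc

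The capitals in Spp1 are the PU.1-type motif GAGGAAGT, which starts 113 bases ahead of the start and was found in 2.44% of all 32851 promoter windows of that length. A further window listed for Spp1, chr5:104435942-104436191, held no match, nor did the Apoe windows that are not shown. The capitals in Trem2 are the AP-1-type motif TGANTCA, which starts 9 bases ahead of the start and was found in 6.75% of all windows. The E-box CACGTG (6.02% of all windows) and the longer M-box TCATGTGA (0.846%) of the MITF and TFE factors were in none of the 11 windows listed for 7 members, which include Clec7a. A match is a description of letters, and no match says only that these letters are not in the window. No window was listed for Lpl.

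Trem2, the lipid receptor, was detected in nearly every C1q cell of both libraries. It had 182 UMIs in 26 of 28 WT cells (92.9%, exact 95% Clopper-Pearson interval 76.5–99.1) and 144 UMIs in 16 of 18 twi cells (88.9%, 65.3–98.6). As a level, this was 1993 CPM in WT and 1338 CPM in twi, a twi/WT ratio of 0.671 (0.536–0.840). The direction depended on the scale and on the cells taken. Per cell there were 6.50 Trem2 UMIs in WT and 8 in twi, with a ratio of 1.23 (0.982–1.54). Counting per cell multiplies every gene's ratio in a class by the same factor, the twi/WT ratio of the mean UMIs per cell. It is thus no property of Trem2. Without cells that carried 3 or more markers of B, T or NK cells or neutrophils (13 WT and 4 twi cells), the CPM ratio was 0.750 (0.550–1.03). Among cells with a Y-linked transcript and no Xist (16 WT and 4 twi cells) it was 1.44 (1.00–2.04). No WT C1q cell had Xist, and the 12 left out there had Trem2 at 2842 CPM, against 1511 CPM in the 16 kept. The 4 twi cells were at 2173 CPM, and 39 of their 53 Trem2 UMIs lay in 1 cell, the only one with Gpnmb. The ratio of 1.44 thus depended on the WT cells left out and on that twi cell. By single cells, Trem2 reached 24 UMIs in the highest WT cell and 39 in the highest twi cell. In B cells, taken as a rough measure of free RNA, 0.355% of WT and 0.585% of twi cells had a Trem2 UMI, at a median of 2003 and 2210 UMIs per cell. That measure was not common to all lymphocytes for every member, as the levels given below for B and T or NK cells show.

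Apoe, the lipoprotein that TREM2 binds, divided the C1q cells. It was detected in 13 of 28 WT cells (46.4%, 27.5–66.1) and 8 of 18 twi cells (44.4%, 21.5–69.2), beside 4.62% and 9.36% of B cells. The summed level was 2748 CPM in WT (251 UMIs) and 2573 CPM in twi (277 UMIs), a ratio of 0.936 (0.786–1.12). Few cells carried that sum. A single WT cell held 127 UMIs, or 50.6%, and 4 twi cells together 89.9%. Of those 4 twi cells, 2 with 80 and 46 Apoe UMIs also had 12 and 4 UMIs of the monocyte chemokine receptor Ccr2, and 18 and 33 UMIs of the MHC class II gene H2-Aa. The first of them was not microglia-like. Among microglia-like cells alone the ratio was 0.689 (0.569–0.834), and without cells that carried 3 or more markers of B, T or NK cells or neutrophils it was 1.45 (1.11–1.91). The direction of Apoe in C1q cells thus changed with the cells taken, and per cell it had 8.96 UMIs in WT and 15.4 in twi.

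Spp1, the secreted integrin ligand, had 0 UMIs in 28 WT C1q cells. A count of 0 allows 3 UMIs, or 32.9 CPM, and a UMI in up to 10.7% of cells, which limits cells with a UMI and not cells that express the gene. In twi it had 27 UMIs in 4 of 18 cells (22.2%, 6.41–47.6), or 251 CPM (165–365). Set against 3 UMIs over the WT class, twi was 7.63-fold higher, and the exact interval of the ratio began at 5.79. The 4 cells held 14, 9, 2 and 2 UMIs. Without cells that carried markers of other classes 11 UMIs were left, 1.95-fold higher against 3 WT UMIs (interval from 1.33). In B cells 1.07% of WT and 1.17% of twi cells had a Spp1 UMI.

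Gpnmb, the lysosomal glycoprotein, had 0 UMIs in WT C1q cells and 18 UMIs in twi, or 167 CPM (99.1–264). That was 5.09-fold higher against 3 WT UMIs, and the exact interval of the ratio began at 3.73. All 18 UMIs came from 1 cell, and the other 17 twi cells had none. In that cell stood also 64 Apoe, 39 Trem2, 38 Lgals3 and 3 Axl UMIs, with 46 UMIs of Cd63, a membrane protein of late endosomes, 17 of Ms4a7 and 0 of P2ry12. It held 12000 UMIs in all, above every WT C1q cell, of which the largest had 9290.

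Lgals3, the galectin, had 12 UMIs in 8 of 28 WT C1q cells and 48 UMIs in 4 of 18 twi cells. This was 131 CPM (67.9–230) in WT and 446 CPM (329–591) in twi, a ratio of 3.39 (1.78–7.02). The Gpnmb-bearing cell held 38 of the 48 twi UMIs. Without the cell with the most Lgals3 UMIs in each library the ratio was 0.894 (0.334–2.39), so the higher sum rested on that cell. Of the 8 WT C1q cells with Lgals3, 4 had 26 to 118 UMIs of the neutrophil gene Retnlg, and neutrophils carried Lgals3 at 921 CPM in WT. Without cells with 20 or more Retnlg UMIs the ratio was 6.24 (2.50–20.1), and without cells that carried markers of other classes 12.5 (3.27–106), both with the Gpnmb-bearing cell included.

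Axl, the TAM receptor, had 1 UMI in 1 WT C1q cell and 20 UMIs in 8 of 18 twi cells (44.4%, 21.5–69.2), with at most 5 in a cell. At an equal 1000 UMIs per cell, 0 of 26 WT and 2 of 17 twi cells (11.8%, 1.46–36.4) had a UMI, and these intervals overlap. Its level was 10.9 CPM (0.277–61.0) in WT and 186 CPM (113–287) in twi, a ratio of 17.0 (2.71–703). B cells of both libraries had 0 Axl UMIs, and T or NK cells had 3 UMIs in WT and 13 UMIs in 13 twi cells (0.845% and 1.53% of cells). The twi level stayed above that of WT when the cell with most UMIs of each library was left out, although WT then had 0 UMIs. Against 3 WT UMIs twi was then 4.56-fold higher, and the exact interval of the ratio began at 3.27.

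Lpl, the lipoprotein lipase, had 9 UMIs in 4 WT and 16 UMIs in 2 twi C1q cells. The levels were 98.5 CPM (45.1–187) and 149 CPM (85.0–241), a ratio of 1.51 (0.628–3.87). In UMIs per cell the ratio was 2.77 (1.15–7.10). Without cells that carried markers of other classes WT had 0 and twi 13 UMIs, 2.30-fold higher against 3 WT UMIs (interval from 1.62). Without the cell with the most Lpl UMIs in each library the CPM ratio was 0.624 (0.0914–3.69), so the direction rested on 1 twi cell. One twi cell held 13 of its 16 UMIs, together with 13 Trem2, 5 Lgals3 and 5 Axl UMIs. No neutrophil or lymphocyte of either library had a Lpl UMI.

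**Figure D2:**
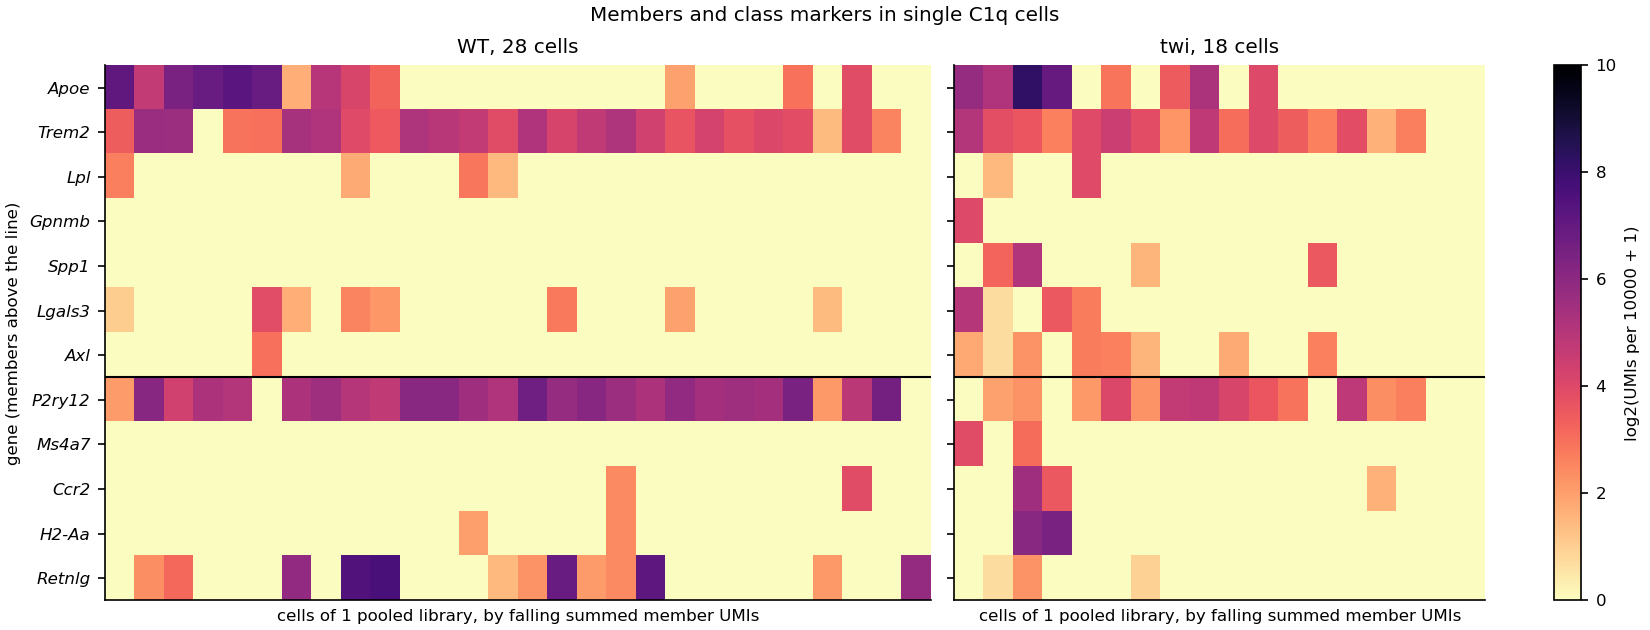
Single C1q cells of the WT library (28 cells, left) and the twi library (18 cells, right) in columns, ordered by falling summed UMIs of the members, with the 7 members above the line and 5 markers below it; colour is log2(UMIs per 10000 + 1). Trem2 fills most columns of both panels, Gpnmb is in 1 twi cell, Spp1 in 4 twi cells and Axl in 8 twi cells, and Retnlg is mostly in WT cells.

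Several members in the same cell were seen in both genotypes. At least 3 members had a UMI in 6 of 28 WT C1q cells (21.4%, 8.30–41.0) and 8 of 18 twi C1q cells (44.4%, 21.5–69.2), and the intervals overlap. After thinning to 1000 UMIs per cell (2 WT cells and 1 twi cell had fewer and were left out), the counts were 0 of 26 (0–13.2%) and 3 of 17 (17.6%, 3.80–43.4). Any of Lpl, Gpnmb, Spp1 or Axl was detected in 5 WT cells and 8 twi cells before thinning. The twi cell with most members carried 6 of them, with 59 Apoe, 22 Trem2, 14 Spp1, 3 Lpl, 1 Lgals3 and 1 Axl UMIs and 8 UMIs of Cst7, a cystatin of activated microglia. That cell had 17027 UMIs, the most of all C1q cells, and doublets were not called in either library.

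In monocytes the largest UMI numbers belonged to Apoe. It had 190 UMIs in 23 of 35 WT monocytes (65.7%, 47.8–80.9) and 1119 UMIs in 47 of 59 twi monocytes (79.7%, 67.2–89.0). The level was 796 CPM (686–917) in WT and 3536 CPM (3331–3749) in twi, a ratio of 4.44 (3.81–5.21). At 1000 UMIs per cell, 45.7% of WT (28.8–63.4) and 62.1% of twi (48.4–74.5) monocytes had an Apoe UMI. Per 10000 UMIs of a cell, the median monocyte had 2.59 Apoe UMIs in WT and 17.4 in twi, and the highest 87.3 and 737, so single-cell values of the libraries overlapped. The ratio lay between 2.64 and 7.60 under the 10 alternatives tried. The 7.60 came from Leiden clusters, in which a cluster led by Mpo, Prtn3 and Elane added 21 WT and 4 twi cells, so unlike cells were compared. In WT the Apoe level of C1q cells was 3.45-fold (2.85–4.19) that of monocytes, whereas in twi it was 0.728-fold (0.636–0.831).

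Spp1 in monocytes was confined to few cells. It had 2 UMIs in WT, 1 each in 2 cells, and 172 UMIs in 7 of 59 twi cells (11.9%, 4.91–22.9), or 8.37 CPM (1.01–30.3) against 543 CPM (465–631). The ratio was 64.9 (17.7–540). One twi cell held 94 of these UMIs (54.7%) and the top 4 cells 95.3%. Without the cell with the most Spp1 UMIs in each library, 1 WT and 78 twi UMIs were left, a ratio of 55.8 (9.72–2231).

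Trem2 had 3 UMIs in 3 of 35 WT monocytes and 28 UMIs in 14 of 59 twi monocytes (23.7%, 13.6–36.6), beside 0 of 35 and 3 of 58 cells at 1000 UMIs per cell. The levels were 12.6 CPM (2.59–36.7) and 88.5 CPM (58.8–128). The ratio was 7.04 (2.18–36.2). Cells with Xist and no Y-linked transcript, of which WT had none, held 22 of the 28 twi UMIs, and among cells with a Y-linked transcript and no Xist the ratio was 1.25 (0.104–10.9). Within twi, the C1q cells had 15.1-fold (10.0–23.6) the Trem2 level of monocytes, and within WT 159-fold (53.4–776).

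Lgals3 was present in nearly every monocyte of both libraries. All 35 WT monocytes and 54 of 59 twi monocytes (91.5%, 81.3–97.2) had a UMI, at 2232 CPM (2046–2430) in WT and 2123 CPM (1966–2290) in twi. The ratio was 0.951 (0.848–1.07), but it was 0.748 (0.667–0.840) in UMIs per cell and 1.65 (1.47–1.84) in Leiden clusters, so no direction is given. Lgals3 monocyte levels were 2.42-fold (2.16–2.72) those of neutrophils in WT and 1.89-fold (1.63–2.18) in twi.

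The 3 remaining members were sparse in monocytes. Gpnmb had 0 UMIs in WT and 12 UMIs in 3 twi cells, at least 3.02-fold higher against 3 WT UMIs, and 9 of the 12 lay in 1 cell. At 1000 UMIs per cell twi was at 1.01-fold against 3 WT UMIs (interval from 0.553), so the difference was not detectable there. Axl had 2 UMIs in WT and 11 in 6 twi cells, a ratio of 4.15 (0.906–38.5). Lpl had 5 and 12 UMIs, a ratio of 1.81 (0.594–6.56). Both intervals span 1, while with 2 markers and 1 more Axl was at 4.89 (1.07–45.4). In Leiden clusters Axl was at 4.98 (1.34–27.5) and Lpl at 6.22 (1.76–33.5), but the cells compared there were unlike. A cluster led by Mpo, Prtn3 and Elane gave 21 of the 41 WT and 4 of the 50 twi cells named monocytes by Leiden clusters.

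The monocytes with the most member UMIs were twi cells of different make-up. One carried 170 Apoe, 94 Spp1, 9 Trem2 and 3 Axl UMIs together with 10 Ccr2 UMIs. Another had 211 Apoe and 7 Spp1 UMIs. The next had 43 Apoe, 53 Spp1, 9 Gpnmb and 33 Lgals3 UMIs, 16 UMIs of the fatty acid binding protein Fabp5 and no Ccr2. By the class rule none of them held 3 UMIs of C1q. Microglia markers summed to 909 CPM in the WT monocytes and 1046 CPM in the twi monocytes, with 3 or more such markers in 12 of 35 and 19 of 59 cells, and C1q transcripts to 12.6 and 9.48 CPM. Without the cells with 3 or more microglia markers the ratio was 3.15 (2.53–3.96) for Apoe, 3.52 (0.983–19.1) for Trem2 and 48.3 (8.36–1936) for Spp1.

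**Figure D3:**
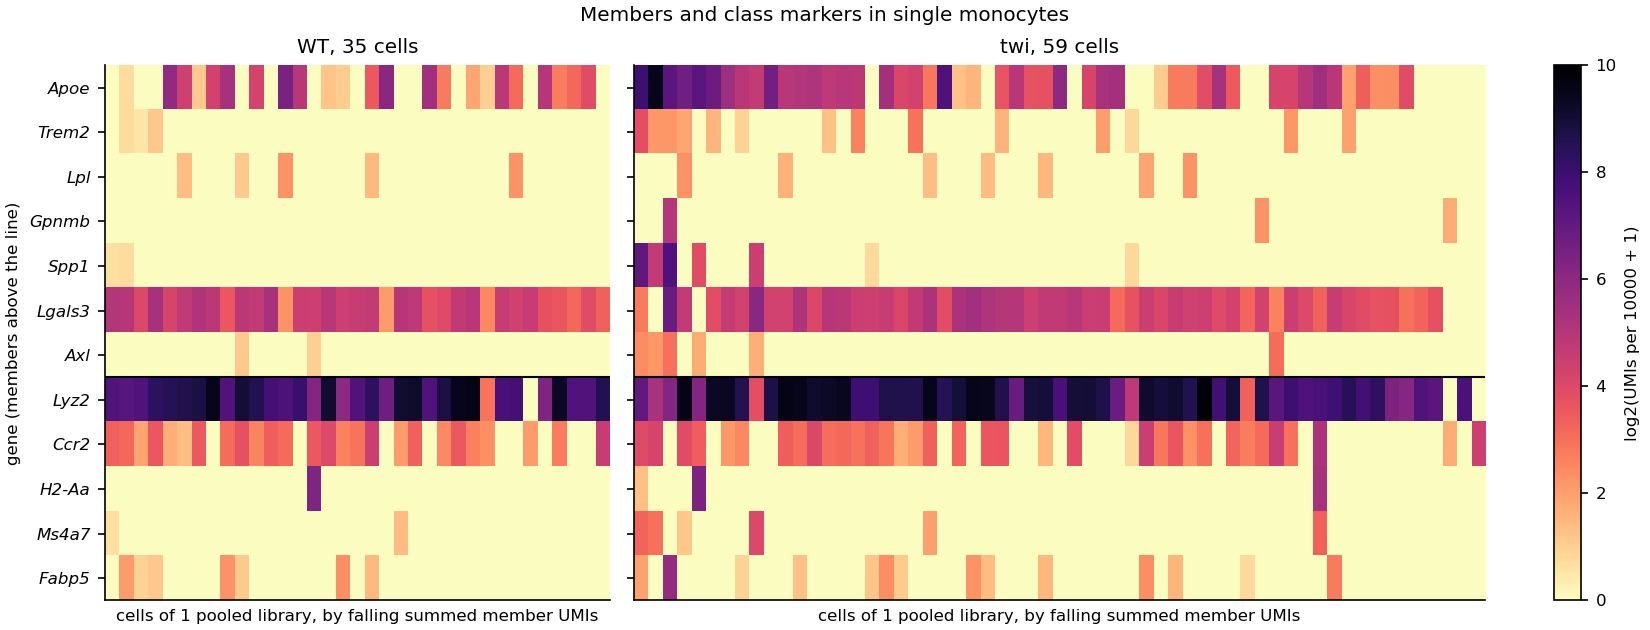
Single monocytes of the WT library (35 cells, left) and the twi library (59 cells, right) in columns, ordered by falling summed UMIs of the members, with the 7 members above the line and 5 markers below it; colour is log2(UMIs per 10000 + 1). Lgals3 fills nearly all columns of both panels, Apoe is darker in twi, and Spp1 is strong only in a few twi cells at the left.

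Sex-linked transcripts differed between the libraries, and most Spp1 UMIs of twi C1q cells and monocytes lay in cells with Xist. Xist, the transcript of the inactive X chromosome, was in 0 of 28 WT C1q cells and 0 of 35 WT monocytes, but in 8 of 18 and 24 of 59 twi cells. All 27 Spp1 UMIs of twi C1q cells and 153 of the 172 of twi monocytes lay in cells with Xist and no Y-linked transcript. Few cells carried them, since Spp1 was in 4 twi C1q cells and 7 twi monocytes, and single monocytes held 94 and 53 UMIs. Twi monocytes with neither transcript had 17 Spp1 UMIs. The share of cells with Spp1 was not compared by these transcripts. Among monocytes with a Y-linked transcript and no Xist (20 WT and 12 twi cells), Spp1 had 2 UMIs in each library, a ratio of 1.87 (0.136–25.8), and Trem2 had 3 and 2 UMIs, the ratio given above. Of the twi monocyte UMIs of Gpnmb 9 of 12, and of Axl 9 of 11, also lay in cells with Xist alone and none in cells with a Y-linked transcript alone. The 9 of Gpnmb came from 1 cell. For Spp1, and for Trem2, Gpnmb and Axl in monocytes, genotype and sex cannot be told apart here. Apoe in the same monocytes had a ratio of 2.64 (1.93–3.63), below the 4.44 of all monocytes and in the same direction, with 71 UMIs in WT and 100 in twi. The 15 WT monocytes with neither transcript, left out there, had Apoe at 1806 CPM, against 411 CPM in the 20 kept. In twi the 12 cells kept were at 1083 CPM, those with Xist alone at 4271 CPM and those with neither at 4929 CPM. The 2.64 thus depended on the cells kept, and genotype and sex cannot be told apart for Apoe either. The C1q cell with all 18 Gpnmb UMIs had a Y-linked transcript and no Xist, and Axl was found in both kinds of twi C1q cell, with 10 UMIs in 7 cells with Xist alone and 5 UMIs in 4 cells with a Y-linked transcript alone.

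**Figure D4:**
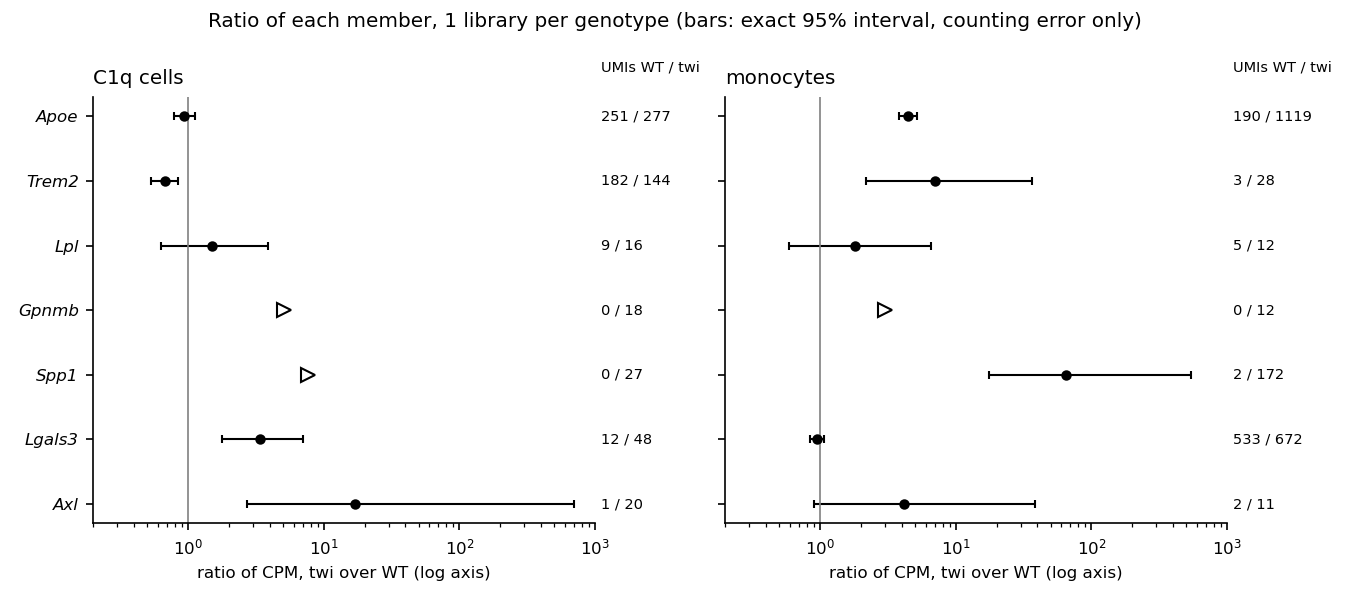
Ratio of CPM, twi over WT, for the 7 measured members in C1q cells (left) and monocytes (right) on a log axis; points are ratios with exact 95% conditional intervals for counting error, open arrowheads are lower bounds where WT had 0 UMIs, and the numbers at the right are the UMIs of WT and twi. Apoe is at 0.936 in C1q cells and 4.44 in monocytes, and Trem2 lies below 1 in C1q cells and above 1 in monocytes.

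Against all genes of the same class, the members lay on both sides of the median in C1q cells. Of 1234 genes with at least 25 UMIs in C1q cells of both libraries together, 13.3% were at least 2-fold higher and 11.3% at least 2-fold lower in twi. Of the 5 members that passed, 2 (Spp1 and Lgals3) were at least 2-fold higher and 0 lower. Spp1 (0 and 27 UMIs) passed that minimum through twi alone, and Lgals3 had 12 and 48 UMIs, so the count is set in part by the minimum. Ranked from high to low, Spp1 was 6th, Lgals3 41st, Lpl 350th, Apoe 715th and Trem2 956th of 1234. In monocytes 3.83% of 3000 genes were at least 2-fold higher and 4.97% at least 2-fold lower in twi. Of the 4 members that passed there, Spp1 (rank 2), Trem2 (rank 9) and Apoe (rank 11) were at least 2-fold higher, and Lgals3 was at rank 1501. Spp1 (2 and 172 UMIs) and Trem2 (3 and 28 UMIs) passed there only through twi, so they had to differ. The median log2 ratio of all genes was 0.10 in C1q cells and -0.07 in monocytes.

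Neutrophils held Lgals3 but little of the other members. Lgals3 had 682 UMIs in 181 of 228 WT neutrophils and 259 in 52 of 65 twi neutrophils, 921 CPM (854–993) against 1126 CPM (993–1272), a ratio of 1.22 (1.06–1.41). Apoe had 23 and 3 UMIs and Spp1 12 and 0 UMIs. Gpnmb, Axl and Lpl were at 0 in neutrophils of both libraries, and Trem2 had 1 UMI.

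In lymphocytes Lgals3 was again the member with the most UMIs. T or NK cells had 124 Lgals3 UMIs in WT and 420 in twi, 105 and 119 CPM, a ratio of 1.14 (0.928–1.40), and B cells 29 and 3. The higher lymphocyte sum in twi, 107 against 63.3 CPM, came with 850 T or NK cells of 1021 lymphocytes in twi against 355 of 918 in WT. Gpnmb had 15 UMIs in 13 twi T or NK cells and 0 in WT, a level of 4.25 CPM in twi, with up to 2.54 CPM allowed in WT. Apoe was higher in B cells (56.0 CPM in WT and 47.6 in twi) than in T or NK cells (4.23 and 10.2 CPM), and the ratio of T or NK cells to B cells was 0.0755 (0.0238–0.185) and 0.214 (0.122–0.387). In WT, neutrophils and lymphocytes had Apoe levels that could not be told apart (ratio 1.01, 0.606–1.64).

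Of the genes that act with TREM2 and Dectin-1, the 2 adaptors with the most UMIs were higher in twi C1q cells. Tyrobp, the adaptor of TREM2, had a ratio of 1.28 (1.06–1.54), with 197 and 297 UMIs, and Fcer1g, the Fc receptor gamma chain, 1.56 (1.30–1.89). Of the 12 genes listed 4 passed the minimum and 0 were at least 2-fold higher, beside 13.3% of all genes. Inpp5d, the phosphatase SHIP1 that restrains this signal, was lower at 0.318 (0.130–0.709), beside 11.3% of all genes at least 2-fold lower. It had 24 UMIs in WT and 9 in twi, so it passed the minimum mostly through WT. The list's median log2 ratio was -0.08, but 0.80 in UMIs per cell. In monocytes 0 of 8 were past 2-fold in either direction.

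Genes of cholesterol and lipoprotein handling were mostly too sparse. In C1q cells 2 of 20 passed the minimum, and both were at least 2-fold higher, beside 13.3% of all genes. Npc2, which carries cholesterol out of lysosomes, had 53 and 128 UMIs, a ratio of 2.05 (1.48–2.88). Lrp1, a receptor of APOE, had 8 and 29 UMIs, a ratio of 3.08 (1.37–7.78), and passed the minimum through twi alone. In monocytes 10 were tested, of which 0 were at least 2-fold higher and 1 at least 2-fold lower, beside 3.83% and 4.97% of all genes. The median was -0.04, and the lower gene had 18 and 11 UMIs, close to the minimum.

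The other TAM receptors, their ligands and the engulfment genes were set beside Axl, which with 1 and 20 UMIs in C1q cells was itself below the minimum. None of the 7 of 14 that passed in C1q cells was past 2-fold in either direction, and the median log2 ratio was -0.15, but 0.73 in UMIs per cell. Mertk, the TAM receptor of resting phagocytes, had a ratio of 0.679 (0.357–1.27), its ligand gene Pros1 0.606 (0.324–1.11) and Gas6, the ligand of AXL, 1.31 (0.579–3.10). The difference between Axl and these genes was not tested. In monocytes 0 of 3 were past 2-fold.

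Among genes that partner osteopontin or galectin-3, 4 of 11 passed in C1q cells and 2 were at least 2-fold higher, both of which passed through twi alone, beside 13.3% of all genes. Lgals3bp, the galectin-3 binding protein, had 5 and 46 UMIs, a ratio of 7.80 (3.11–25.2). Lgals9, another galectin, had 6 and 32 UMIs, a ratio of 4.52 (1.87–13.2). Lgals1 had a ratio of 1.04 (0.531–2.05) and the integrin subunit Itgb1 1.78 (0.803–4.24). The most in 1 twi cell was 10 UMIs for Lgals3bp and 5 for Lgals9. In monocytes 0 of 6 were past 2-fold.

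The list of other disease-associated phagocyte genes had 16 of 22 genes past the minimum in C1q cells. Of these, 5 were at least 2-fold higher, 1 was at least 2-fold lower and 10 lay between, beside 13.3% higher and 11.3% lower of all genes, and the median log2 ratio was 0.61. Of the 5, Capg (5 and 43 UMIs) and Tspo (10 and 63 UMIs) passed the minimum through twi alone. The lower gene, Ccl6 (55 and 12 UMIs), had a ratio of 0.185 (0.0902–0.350) and passed the minimum through WT alone. The lysosomal proteases cathepsin D, B and Z had ratios of 1.49 (1.37–1.63) for Ctsd, 2.27 (1.92–2.70) for Ctsb and 1.92 (1.57–2.35) for Ctsz. Ctsl, the other cathepsin gene listed, was at 0.790 (0.602–1.04), with an interval that spans 1. Fth1, the iron-storing ferritin heavy chain, had 190 and 701 UMIs, a ratio of 3.13 (2.66–3.69). Cd52 had a ratio of 2.07 (1.63–2.64) and the tetraspanin Cd9 1.55 (1.23–1.97). The most in 1 twi cell was 357 of 1349 Ctsd UMIs, 189 of 506 Ctsb UMIs and 226 of 701 Fth1 UMIs. In monocytes 2 of 14 (Cd9 and Fth1) were at least 2-fold higher and 0 lower, beside 3.83% higher and 4.97% lower of all genes, and the median was 0.48.

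**Figure D5:**
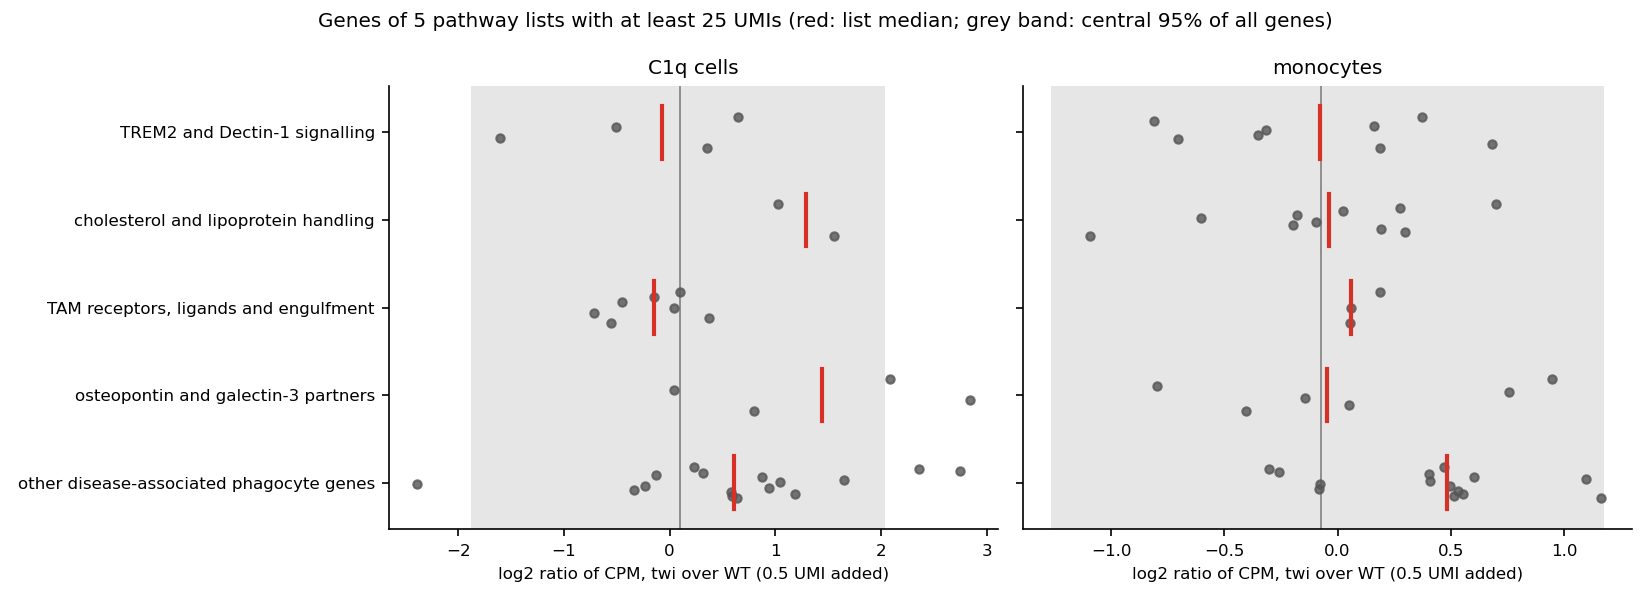
Log2 ratio of CPM, twi over WT with 0.5 UMI added, for the genes of 5 lists with at least 25 UMIs in C1q cells (left) and monocytes (right); each point is a gene, red bars are list medians, and the grey band and line are the central 95% and the median of all genes that passed. In C1q cells the list of other disease-associated phagocyte genes has a median of 0.61, and the TAM list one of -0.15.

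The pattern of each member over 10 sums of cells (microglia-like C1q cells, monocytes, neutrophils, B cells and T or NK cells of both libraries) was set beside that of 8838 genes by Pearson's r of log2(CPM + 10). Nearest to Apoe were Pnp (r = 0.979), Lamp1 (0.978) and Cd302 (0.976), and nearest to Trem2 were C3ar1 (0.993), F11r (0.989) and Tgfbr1 (0.988). For Lpl these were Aif1 (0.998), Fcgr1 (0.996) and Fam102b (0.986), and for Lgals3 Glipr1 (0.954), Ifitm3 (0.948) and Pkm (0.939). Cxcl16, a transmembrane chemokine, came first for both Gpnmb (0.990) and Axl (0.969). Gpnmb was followed by Lcor (0.926) and Rnf215 (0.917), and Axl by Adck4 (0.933) and Nr2f6 (0.928). Spp1 had the lowest values, with Tnrc18 (0.892), Ap2s1 (0.874) and Mospd2 (0.865). The sums of a library share its depth and free RNA, and values near 1 are reached easily over so few points.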

How the data were processed

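CD45+ brain cells of 1 pooled WT and 1 pooled twi library were analysed. Unnormalized UMI counts of each gene in each barcode were deposited by the authors. The submitters' processing notes name Cell Ranger 2.1.1 and mm10. Barcodes with over 15% mitochondrial UMIs were removed. C1q cells had at least 3 C1qa, C1qb and C1qc UMIs; other cells joined a class with at least 3 of its markers and at least 2 more than of any other class. UMIs were summed per class, with exact Poisson, Clopper-Pearson and conditional intervals at 95% (scipy 1.17.1, numpy 2.4.6) and a floor of 3 UMIs. The gene minimum was 25 UMIs in a class of both libraries together. Lymphocytes were B and T or NK cells. Leiden clusters (scanpy 1.11.5, leidenalg 0.10.2) made without the members were an alternative. No doublet caller was used. Single values of 1 further marker gene are not reported here. Members, marker lists and pathway lists were chosen with earlier results of these data known. Named were all members, up to 6 genes per pathway list by UMIs in C1q cells, the 3 most alike genes per member and class markers. Other genes of single cells, Capg, Tspo, Ccl6, Ctsl, and Cd9 and Fth1 in monocytes, were named after their values were seen. The interval steps were tested on simulated data.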

Additional observations from a re-analysis of the deposited data

Results flagged for a closer look

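For Trem2, the twi/WT ratio of CPM was 0.671 (0.536–0.840) in C1q cells and 7.04 (2.18–36.2) in monocytes, and both intervals, which cover counting error only, lie on 1 side of 1. The difference between the classes was not tested, since each genotype had 1 library. The opposition did not hold throughout. The C1q ratio was 1.23 (0.982–1.54) when UMIs were counted per cell, a step that multiplies all ratios of the class by the same factor. Among cells with a Y-linked transcript and no Xist, the CPM ratios were 1.44 (1.00–2.04) in C1q cells (4 of them twi) and 1.25 (0.104–10.9) in monocytes. The 12 WT C1q cells left out there, which had neither transcript, had Trem2 at 2842 CPM, against 1511 CPM in the 16 kept. Of the 53 Trem2 UMIs of the 4 twi C1q cells, 39 lay in 1 cell, so the 1.44 rested largely on that cell. Without monocytes with 3 or more microglia markers the monocyte ratio was 3.52 (0.983–19.1).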

How the results depend on the processing

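With each genotype in a single pooled library, counting error is the only error known, and sums of under 30 UMIs limit Lpl, Gpnmb, Spp1 and Axl in C1q cells most. No paired analysis was possible because each genotype had only a single sample. Border macrophage-like C1q cells gave no value, since there were none. Of 197 values recomputed, 144 stayed within their interval or spread, 45 left it and 8 were counted as reversed. A member ratio was counted as reversed only if its main interval excluded equal levels, so some of the 45 also changed direction. Apoe in C1q cells went from 0.936 to 1.72 in UMIs per cell, and Lpl there from 1.51 to 0.624 without the top cell. Counting per cell shifts all genes and lists of a class by the same factor. In monocytes, Lgals3 went from 0.951 to 1.65 in Leiden clusters, and Axl from 4.15 to 0 in cells with Y-linked transcripts and no Xist. The cause of these changes was not tested beyond what each alternative changes by its own construction.

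The twi/WT ratios of members with at least 25 UMIs in the class that moved were as follows. A ratio written as at least sets the twi level against 3 WT UMIs and leaves out the counting error of twi. In UMIs per cell, Apoe was 1.72 and Trem2 1.23 in C1q cells, Apoe 3.49 and Lgals3 0.748 in monocytes, and the list medians (log2) were 0.80 for TREM2 and Dectin-1 signalling, 2.17 for cholesterol handling and 0.73 for the TAM list. With a minimum of 10 UMIs per gene, the first 2 lists were at 0.50 and 0.32. Thinned to 1000 UMIs, C1q cells had ratios of 1.46 for Apoe, 0.450 for Trem2, at least 2.04 for Spp1 and 0.382 for Lgals3 (4 against 1 UMI), monocytes had 3.35 for Apoe and at least 10.5 for Spp1, and 0% of WT and 17.6% of twi C1q cells had 3 members. With a C1q sum of at least 1, Apoe was 1.31, Trem2 0.522 and Lgals3 0.898. Among microglia-like cells Apoe was 0.689 and Spp1 at least 5.27. Without C1q cells with markers of another class Apoe was 1.45, Spp1 at least 1.95 and Lgals3 12.5. Without the top cell Apoe was 1.24, Lpl 0.624, Spp1 at least 4.37 and Lgals3 0.894 in C1q cells. In cells with Y-linked transcripts and no Xist, C1q cells had ratios of 1.44 for Trem2, 0 for Lpl and 9.07 for Lgals3 (4 twi cells), and monocytes 2.64 for Apoe, 1.25 for Trem2 and 1.87 for Spp1. In monocytes by Leiden clusters, of which 1 was led by Mpo, Prtn3 and Elane (21 WT and 4 twi cells), Apoe was 7.60 and Lgals3 1.65, and with 2 markers and 1 more Lgals3 was 1.16. Of the 3 alternatives chosen after seeing the data, leaving out C1q cells with 20 or more Retnlg UMIs gave 0.756 for Apoe, leaving out monocytes with 3 or more microglia markers gave 3.15 for Apoe, and leaving out the top monocyte moved no ratio of a member with at least 25 UMIs out of its interval. Of 42 member levels by class, 32 kept within their interval by Leiden clusters. Of sparser members, Gpnmb moved to at least 3.19 in C1q cells without markers of another class and at least 1.01 in thinned monocytes, and Axl to 0 in monocytes with Y-linked transcripts.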
